A study of Arabidopsis thaliana with 27 samples.

Results

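Seeds of the PDAT line were compared with seeds of the fae1 line at 9-10 days after flowering in Arabidopsis thaliana, with 3 PDAT libraries against 3 fae1 libraries, 6 of the 27 in the series. These libraries were taken by their labels, as the count files of these line and stage groups. The PDAT line is CL37 carrying the castor bean acyltransferase RcPDAT1a, made in seeds, and CL37 is fae1 carrying the castor bean hydroxylase RcFAH12, also made in seeds. The fae1 line, the reference here, carries the fae1 mutation and no transgene by its label, and all 3 lines share that mutation. A difference between PDAT and fae1 therefore carries both castor genes together, and their separate parts cannot be told apart without CL37. Each group has biological replicates A, B and C, taken by the labels from siliques of about 50 plants of a line under constant light, with about 100 mg of frozen seed per sample. The labels do not say how many independent transformants a line stands for.

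FAE1, the enzyme disabled in all 3 lines, lengthens seed fatty acids to very long chains. In developing seeds fatty acids are made in the plastid, modified on phosphatidylcholine in the endoplasmic reticulum and stored as triacylglycerol in oil bodies. The castor hydroxylase adds a hydroxyl group to oleate on phosphatidylcholine. A PDAT enzyme moves an acyl group from phosphatidylcholine to diacylglycerol, which gives triacylglycerol. The castor transcripts are not in the Arabidopsis gene set and were not analysed here.

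Gene counts ran from 8818367 to 22403287 per library among the 6, with 20161 to 22339 genes detected. Levels are CPM, counts divided by library size after scaling by TMM factors. Replicate pairs differed by more than counting error. The fae1 A library stood apart: on a principal component analysis of the 6 libraries, it lay at -83.1 on the first component (47.1% of the variance), against 0.2 to 34.4 for the other 5 libraries. A stage score was built from CL37, from 500 genes higher and 500 lower at 11-12 than at 7-8 days, as the difference between the average log2 CPM of these sets. It was -1.68, -1.51 and -1.27 in PDAT A, B and C, against -2.58, -2.29 and -1.75 in fae1 A, B and C. All 3 PDAT libraries scored higher than all 3 fae1 libraries, so the score moved with the line, and its part in the results was not tested. Across 18897 genes the log2 fold change of PDAT over fae1 correlated with the change with age in CL37 at r = 0.58, and at r = 0.31 without fae1 A. Genes are not independent replicates, and the 2 sets of values come from different libraries.

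**Figure D1:**
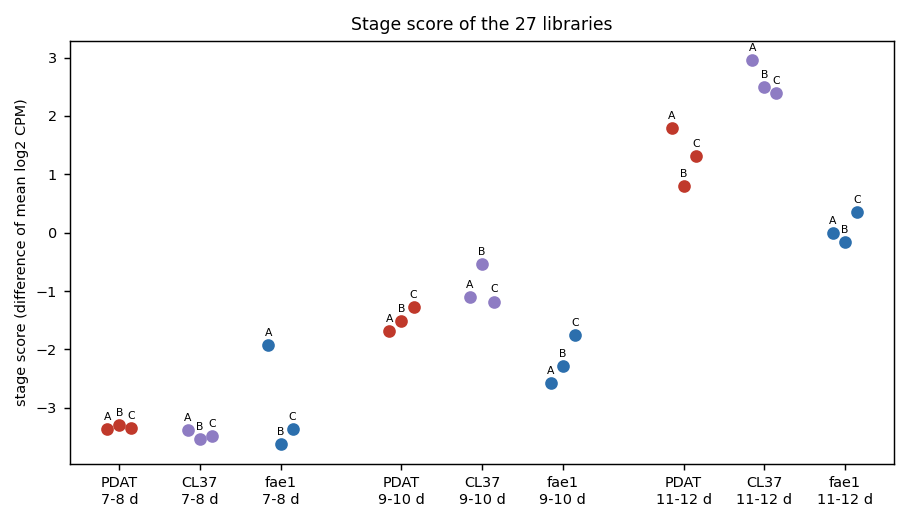
Stage score of each of the 27 libraries, a difference of mean log2 CPM (vertical axis), by line and stage, with the replicate letter above each point. At 9-10 days PDAT lies at -1.68 to -1.27 and fae1 at -2.58 to -1.75, while fae1 A of 7-8 days, at -1.92, lies among the 9-10 day libraries.

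At 9-10 days 12 genes were higher and 5 lower in PDAT than in fae1 (edgeR quasi-likelihood test, Benjamini-Hochberg adjusted p below 0.05 over 18897 genes), which is 0.0635% and 0.0265% of the genes tested. At an unadjusted p below 0.05, 823 genes (4.36%) were higher and 1618 (8.56%) lower. Without fae1 A these counts were 489 higher and 447 lower, so the excess of lower genes was seen only with that library. DESeq2 called 55 higher (0.293%) and 40 lower (0.213%), all 17 edgeR genes among them. Without fae1 A, 2 genes were higher and 4 lower, and leaving out any 1 of the 6 libraries gave 2 to 19 higher and 3 to 22 lower. In a fit of the 6 libraries alone the 1 gene called was MGL (2330 at an unadjusted p below 0.05). In whole seeds, fewer cells of a type and less RNA per cell cannot be told apart. Of the DESeq2 calls that edgeR did not make, 35 were lower, and in 32 of those fae1 A was the highest fae1 library. These include LTP6, a lipid transfer protein gene, with 19.3, 16.8 and 10.9 CPM in PDAT A, B and C against 514, 28.5 and 34.0 CPM in fae1 A, B and C. THI2.1, a thionin gene, had 0.313, 0.871 and 0.151 CPM in PDAT against 66.4, 0.467 and 0.207 CPM in fae1. Both were chosen for display after their values were seen.

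**Figure D2:**
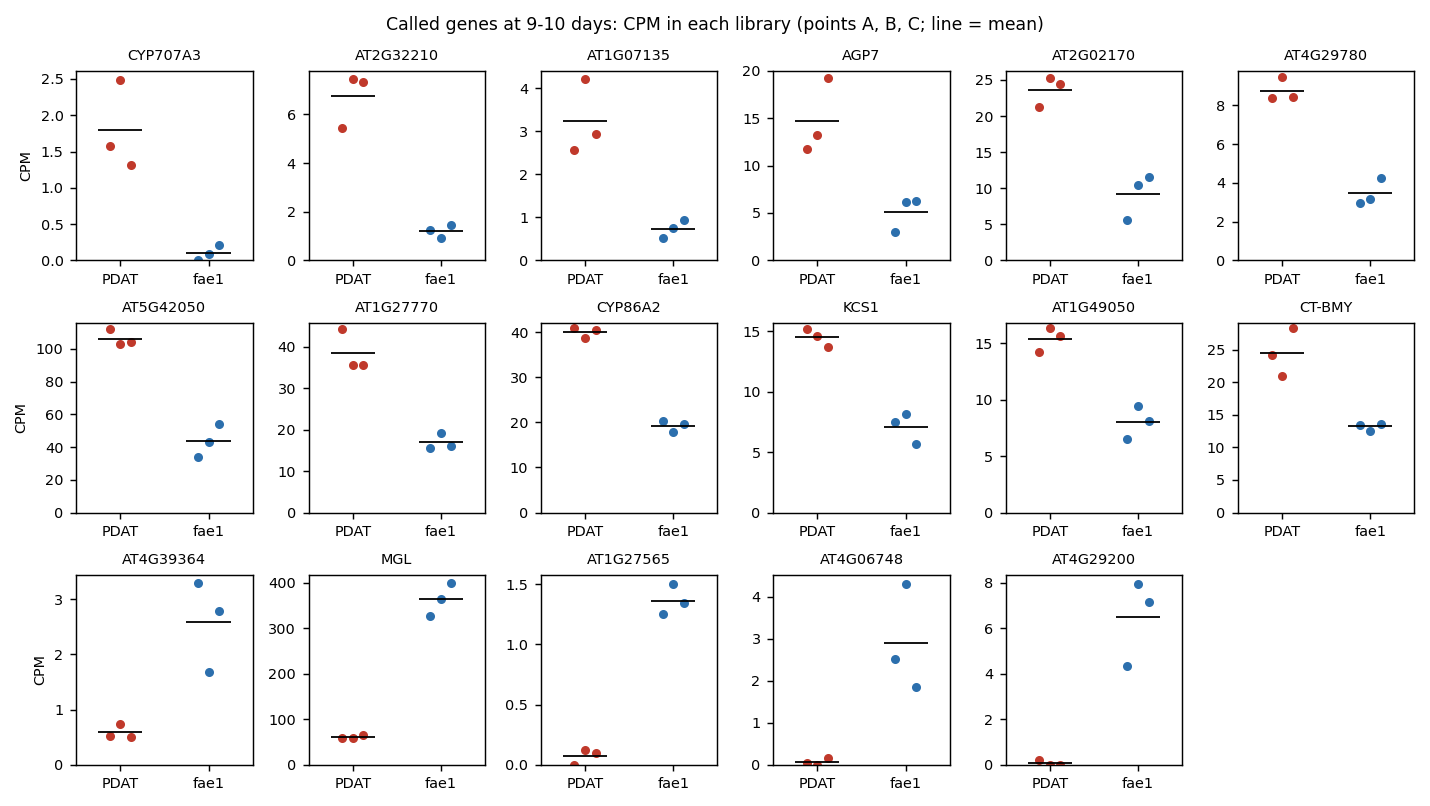
CPM of each of the 17 called genes in every library at 9-10 days (vertical axes start at 0), with PDAT on the left and fae1 on the right, 1 point per library and a line at the mean. In each of the 17 panels the PDAT points lie wholly above or wholly below the fae1 points.

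Among all tested genes, the 3 PDAT libraries lay above all 3 fae1 libraries in 10.4% and below them in 9.51%, so separation of the libraries alone is common.

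The most abundant gene that fell was MGL (AT1G64660), for methionine gamma-lyase, an enzyme that breaks down methionine. It had 58, 59.1 and 66.2 CPM in PDAT A, B and C, against 327, 364 and 400.0 CPM in fae1 A, B and C. The groups were well separated, and the level averaged 61.1 ± 4.43 CPM in PDAT and 363 ± 36.5 CPM in fae1 (SD, n = 3 each). The log2 fold change was -2.57 ± 0.29 (SE; edgeR adjusted p = 5.87e-05), and -2.64 without fae1 A (edgeR adjusted p = 0.000156). MGL kept its call in all 14 alternatives run. CL37 at this stage had 121, 102 and 73.9 CPM, between the lines. Its gene end overlaps that of BDG1 on the other strand by 38 bases, and how strand was used in counting is not given in the sources used here.

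AT4G29200, a beta-galactosidase related gene, was close to absent in PDAT. It had 0.209, 0 and 0 CPM in PDAT A, B and C, against 4.35, 7.95 and 7.14 CPM in fae1 A, B and C. That is 4 counts in the 3 PDAT libraries against 220 in the 3 fae1 libraries. Summed counts scaled by library size were 72.8 times higher in fae1 than in PDAT (95% exact interval 28.0 to 270.0, counting error only). The edgeR adjusted p was 2.16e-05, and 1.17e-05 without fae1 A. The gene was as low in PDAT at 7-8 days, 0.0698 ± 0.0794 CPM against 7.83 ± 2.04 CPM in fae1, and at 11-12 days, 0.0769 ± 0.0671 CPM against 7.99 ± 0.397 CPM. CL37 at 9-10 days had 0.0656, 0.258 and 0.209 CPM, so the gene separated both transgenic lines from fae1. Its neighbours OZF2 and GGT4 averaged 45.7 and 5.92 CPM in PDAT against 34.7 and 5.43 CPM in fae1.

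Another 2 low genes had the same form. AT4G06748, a transcribed pseudogene, had 0.0522, 0 and 0.151 CPM in PDAT against 2.51, 4.3 and 1.86 CPM in fae1, which is 4 counts against 102. Its scaled counts were 33.8 times higher in fae1 (95% exact interval 12.8 to 126.0; edgeR adjusted p = 0.000866). AT1G27565, for an uncharacterized protein, had 0, 0.124 and 0.101 CPM in PDAT against 1.25, 1.5 and 1.34 CPM in fae1, or 3 counts against 48. Its scaled counts were 21.2 times higher in fae1 (95% exact interval 6.83 to 106.0; edgeR adjusted p = 0.00458). Both stayed called without fae1 A. The last gene that fell was AT4G39364, a small nucleolar RNA, with 0.522, 0.747 and 0.504 CPM in PDAT against 3.3, 1.68 and 2.79 CPM in fae1. Its log2 fold change was -2.18 ± 0.36 (edgeR adjusted p = 0.00823), and the call ended without fae1 A (adjusted p = 0.126). Libraries made from polyadenylated RNA are a poor measure of such RNAs.

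Of the 12 genes that rose, CYP86A2 and KCS1 belong to surface lipid synthesis. CYP86A2 (AT4G00360), a fatty acid omega-hydroxylase of cutin synthesis, had 40.9, 38.7 and 40.4 CPM in PDAT A, B and C against 20.3, 17.9 and 19.6 CPM in fae1 A, B and C. The libraries of each group lay close together, and the log2 fold change was 1.06 ± 0.14 (edgeR adjusted p = 0.000866; 1.1 and adjusted p = 0.00624 without fae1 A). KCS1 (AT1G01120), a condensing enzyme of fatty acid elongation, had 15.2, 14.6 and 13.7 CPM in PDAT against 7.46, 8.13 and 5.69 CPM in fae1. Its log2 fold change was 1.02 ± 0.19 (edgeR adjusted p = 0.0305), with the call lost without fae1 A (adjusted p = 0.257). CYP86A2 overlaps ANTR2 on the other strand by 127 bases, and ANTR2 averaged 93.9 CPM in PDAT and 96.6 CPM in fae1.

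CYP707A3, AT1G27770 and AT2G02170 also rose. CYP707A3 (AT5G45340), which inactivates abscisic acid, had 1.57, 2.49 and 1.31 CPM in PDAT against 0, 0.0935 and 0.207 CPM in fae1, or 76 counts against 3. Its scaled counts were 19.1 times higher in PDAT (95% exact interval 6.31 to 94.9; edgeR adjusted p = 0.0409). AT1G27770, for autoinhibited Ca2+-ATPase 1, a calcium pump, had 44.3, 35.5 and 35.5 CPM in PDAT against 15.6, 19.1 and 16.0 CPM in fae1 (log2 fold change 1.19 ± 0.20, edgeR adjusted p = 0.0155). AT2G02170, a remorin, a plant protein of the plasma membrane face, had 21.3, 25.3 and 24.4 CPM in PDAT against 5.54, 10.5 and 11.6 CPM in fae1. Its log2 fold change was 1.38 ± 0.20 (edgeR adjusted p = 0.00171), and 1.1 without fae1 A (adjusted p = 0.00781), so it stayed called.

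AT5G42050, for a DCD (development and cell death) domain protein, was the most abundant gene that rose. It had 112, 103 and 104 CPM in PDAT A, B and C against 33.8, 43.1 and 53.8 CPM in fae1 A, B and C (log2 fold change 1.29 ± 0.24, edgeR adjusted p = 0.0247). AGP7, for an arabinogalactan protein of the cell surface, had 11.7, 13.2 and 19.2 CPM in PDAT against 3.04, 6.17 and 6.21 CPM in fae1. CT-BMY (AT4G17090), a chloroplast beta-amylase that cuts starch to maltose, had 24.2, 21.0 and 28.3 CPM in PDAT against 13.5, 12.5 and 13.6 CPM in fae1 (log2 fold change 0.90 ± 0.17, edgeR adjusted p = 0.0356). With a replicate block the adjusted p was above the threshold for CT-BMY, AT4G29780 and CYP707A3, so 14 of the 17 stayed called. The others that rose were AT1G49050, an aspartyl protease, AT4G29780, a nuclease, AT1G07135, a glycine-rich protein, and AT2G32210, a cysteine-rich transmembrane protein. Their log2 fold changes were 0.94, 1.34, 2.13 and 2.46. CT-BMY and AT1G27770 overlap a gene on the other strand by 13 and 26 bases. Without fae1 A, CYP86A2 and AT2G02170 were the genes of the 12 that stayed called. All 12 kept their direction, with AGP7 at 1.25 and AT5G42050 at 1.13.

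The upstream sequence of 3 called genes is shown because their windows hold motifs of stress or abscisic acid response. Sequences are the 250 bases before the annotated gene start in TAIR10.1 (RefSeq), 5′ to 3′ on the gene's strand, with motif matches in capitals. MGL lies on the plus strand (chr1:24028580-24028829), AT2G32210 on the plus strand (chr2:13677736-13677985) and CYP707A3 on the minus strand (chr5:18371022-18371271).
MGL: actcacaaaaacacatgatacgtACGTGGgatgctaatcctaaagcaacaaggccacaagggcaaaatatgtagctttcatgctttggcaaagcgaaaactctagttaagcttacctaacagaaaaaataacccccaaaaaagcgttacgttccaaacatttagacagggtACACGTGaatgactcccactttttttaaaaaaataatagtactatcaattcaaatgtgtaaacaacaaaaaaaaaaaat
AT2G32210: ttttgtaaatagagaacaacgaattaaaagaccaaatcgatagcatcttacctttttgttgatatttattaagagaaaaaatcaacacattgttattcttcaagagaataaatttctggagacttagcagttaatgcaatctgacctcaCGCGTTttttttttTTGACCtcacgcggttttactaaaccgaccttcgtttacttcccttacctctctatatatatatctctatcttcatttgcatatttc
CYP707A3: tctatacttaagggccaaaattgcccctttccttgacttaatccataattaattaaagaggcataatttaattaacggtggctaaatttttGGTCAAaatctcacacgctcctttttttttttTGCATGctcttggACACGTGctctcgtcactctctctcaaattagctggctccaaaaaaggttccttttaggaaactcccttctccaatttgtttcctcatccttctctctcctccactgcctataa

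Motifs were searched on both strands from 250 bases before to 50 after the gene start. TTGACC, a core bound by WRKY factors, was in 5 of the 12 higher genes and 0 of the 5 lower ones, against 14.1% of tested genes. The genes were AT1G07135, AT1G27770, AT2G02170, AT2G32210 and CYP707A3. CACGTG was in CYP707A3 and MGL, against 9.18% of tested genes, and the longer ACACGTG, which contains CACGTG, matched at the same sites, against 6.2%. CCACGT was in AT5G42050 and MGL (11.0% of tested genes), TGACGT in AT5G42050 (9.75%), CATGCA in CYP707A3 (8.73%) and AACCTG in 0 of the 17 (6.14%). CGCGTT, a core of rapid stress response genes added after the called genes were seen, was in AT2G32210 and AT4G29780 (3.69%). A match is a description of these letters and not a binding site.

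The same line comparison at the other stages uses other libraries. At 7-8 days, where 901 genes (4.77%) were higher and 731 (3.87%) lower in PDAT, 4 of the 12 and 4 of the 5 were called in the same direction. At 11-12 days, where 932 genes (4.93%) were higher and 317 (1.68%) lower, all 12 and 4 of the 5 were called in the same direction. The exception was AT4G39364 (log2 fold change -0.34). MGL was at -2.07, -2.57 and -3.05 at 7-8, 9-10 and 11-12 days, and CYP86A2 at 0.55, 1.06 and 1.47. In CL37, 11 of the 12 also rose from 7-8 to 11-12 days, where 29.5% of genes rose, and none of the 5 passed that test.

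**Figure D3:**
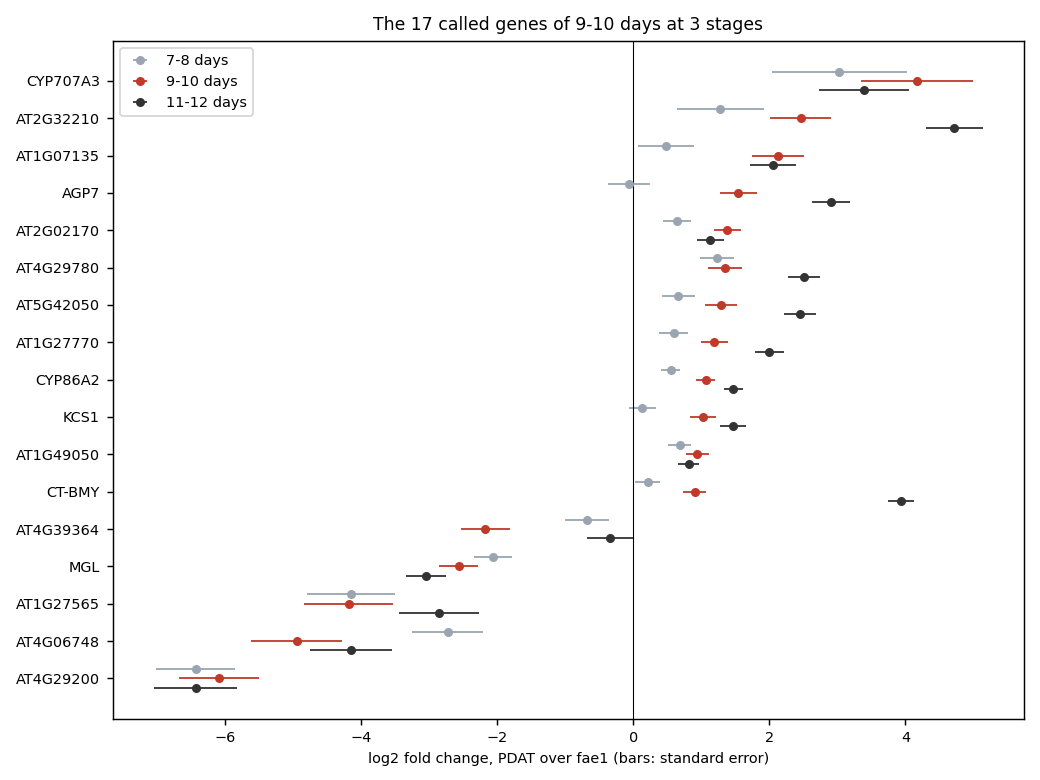
Log2 fold change of PDAT over fae1 (horizontal axis, bars show the standard error) for each of the 17 called genes at 7-8, 9-10 and 11-12 days. CT-BMY runs from 0.21 to 3.93, while AT4G29200 stays between -6.44 and -6.09.

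Whether the line difference changed with stage was tested by interaction. From 7-8 to 9-10 days the log2 difference moved up for 48 genes (0.254%) and down for 98 (0.519%), and none of the 17 was among them. That step includes fae1 A of 7-8 days, which stands apart, and 0 genes were called without PDAT C of 9-10 days (2650 at an unadjusted p below 0.05). The count for that step, 146 in all, was 29 with the replicate block, 72 with no filter and up to 309 with 1 library of 9-10 days left out. From 9-10 to 11-12 days it moved up for 97 genes (0.513%) and down for 2 (0.0106%). That count, 99 in all, was 51 with the replicate block, 223 without both fae1 A libraries and 37 to 109 with 1 library of 9-10 days left out. It was 1534 without fae1 A of 7-8 days, an alternative chosen after seeing the data. Of the 17, CT-BMY was among them, with a change of 3.03 ± 0.25 (edgeR adjusted p = 3.51e-07). Its level was 120.0 ± 17 CPM in PDAT and 7.89 ± 0.147 CPM in fae1 at 11-12 days (SD, n = 3 each).

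CL37, with the hydroxylase alone, was set beside PDAT at the same stage. The comparisons with fae1 share the fae1 libraries, and the one between the transgenic lines shares the PDAT libraries, so they are not independent. CL37 had 133 genes (0.704%) higher and 7 (0.037%) lower than fae1. Of the 17 genes called in PDAT, 11 of the 12 higher and 4 of the 5 lower were also called in the same direction in CL37. The exceptions were AT1G49050 and AT4G39364. AT5G42050 was at 1.29 in PDAT and 1.83 in CL37 over fae1, CYP86A2 at 1.06 and 0.88, and MGL at -2.57 and -1.87. Between the lines, 0 genes were higher and 4 (0.0212%) lower in PDAT than in CL37 in edgeR, with 725 at an unadjusted p below 0.05, and DESeq2 called 24. None of the 17 was called there. The 4 were AT1G19020, PARG2, for a poly(ADP-ribose) glycohydrolase, DOGT1, a glucosyltransferase, and AT3G46080, a zinc finger gene. PARG2 had 0.783, 0.498 and 0.908 CPM in PDAT against 6.3, 7.47 and 1.88 CPM in CL37 (log2 fold change -2.76 ± 0.39, edgeR adjusted p = 0.00465). AT3G46080 had 0.992, 0.622 and 0.656 CPM in PDAT against 7.87, 15.2 and 1.88 CPM in CL37. DOGT1 had 0 counts in PDAT against 36 in CL37, and AT1G19020 had 3 counts against 78. CL37 C was the lowest CL37 library for these 4. The count was 0 without PDAT A, PDAT C or CL37 A (643, 903 and 680 at an unadjusted p below 0.05), and 39 without CL37 C.

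Gene lists are given by counts and medians beside those of all genes, whose median log2 fold change was -0.01 (0.00 without fae1 A), with 9244 of 18897 positive (9475 without fae1 A). Only CYP86A2, CYP707A3 and MGL of the lists' members passed the test. Of 18 tested genes of cutin and suberin, the lipid polymers of plant surfaces and the seed coat, all 18 had a positive log2 fold change, with a median of 1.29 (1.47 without fae1 A and 0.93 without PDAT A). At an unadjusted p below 0.05, 13 of the 18 were higher and 0 lower, against 4.36% and 8.56% of all genes, and DESeq2 called 5 higher, against 0.293% of all genes. Without fae1 A, 11 of the 18 were higher at that unadjusted p, against 489 of 18897 genes. GPAT5, an acyltransferase of suberin, had 5.06, 1.99 and 2.62 CPM in PDAT against 0.594, 0.187 and 0.621 CPM in fae1. ABCG20, a suberin transporter, had 50.1, 30.0 and 36.0 CPM in PDAT against 10.6, 10.8 and 19.4 CPM in fae1. Neither passed in edgeR (adjusted p = 0.188 for both). PDAT A was the highest PDAT library for both. In CL37 this list had a median change with age of 4.04, against 0.01 for all genes. That change was 4.23 for stress transcription factors, 1.83 for heat shock and 2.63 for storage proteins. It was -3.18 for cell division, -2.43 for mucilage and -1.78 for seed coat flavonoid. Its sign was opposite to that of PDAT over fae1 for plastid fatty acid synthesis, jasmonate and photosynthesis. The part of stage in the list medians was not tested.

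**Figure D4:**
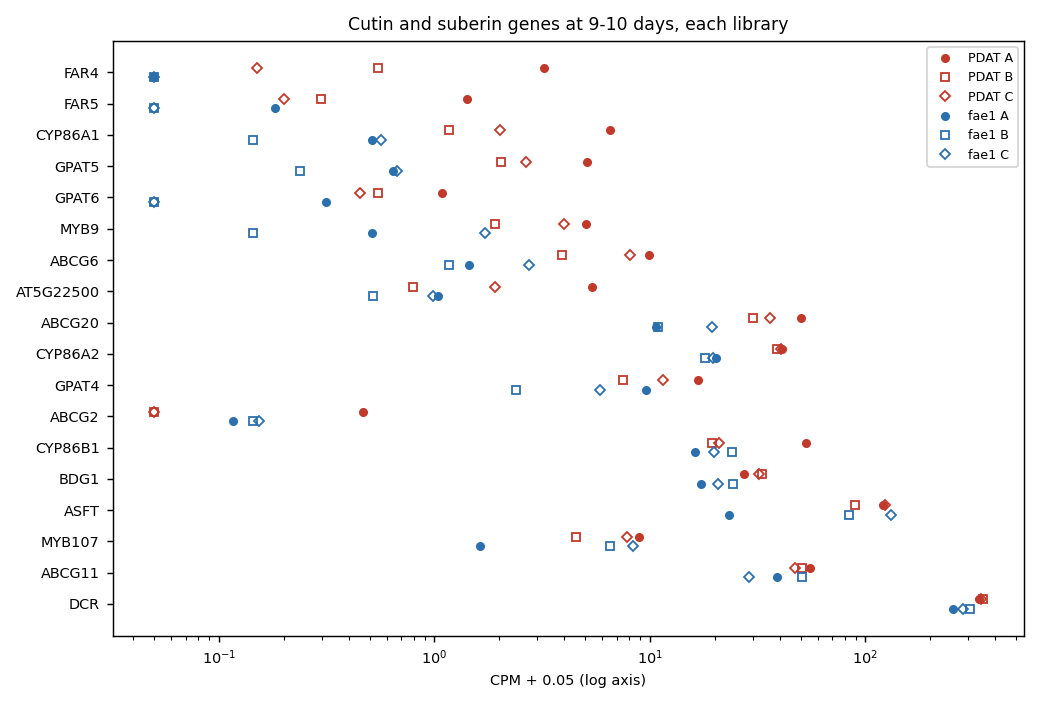
CPM plus 0.05 (log axis) of the 18 tested cutin and suberin genes in each library at 9-10 days, with PDAT in red above fae1 in blue in each row. In 11 of the 18 rows the 3 PDAT points lie above the 3 fae1 points, against 10.4% of all tested genes.

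Heat shock genes had a median of 0.77 (0.71 without fae1 A), with 12 of 14 positive and 5 higher at an unadjusted p below 0.05, against 9244 of 18897 positive and 4.36% higher among all genes. No heat shock gene was called in edgeR or DESeq2. HSP70, a chaperone gene, had 253, 376 and 419 CPM in PDAT against 126, 174 and 202 CPM in fae1 (edgeR adjusted p = 0.297). The stress transcription factor list had a median of 0.62 (0.50 without fae1 A and 1.01 without fae1 C), with 22 of 25 positive and 9 higher at an unadjusted p below 0.05, against 4.36% of all genes. The filter ran over all 9 groups, so some tested members were near 0 in these 6 libraries. WRKY40, with 0.104, 0.124 and 0 CPM in PDAT, and MYB15, with 0, 0 and 0.0504 CPM, count as positive. Both had 0 CPM in each fae1 library. WRKY25, ERF2 and ERF5, among the 9, were at or below 0.706 CPM in each library. DESeq2 called 2 of the 25 higher, ERF104 and WRKY33, against 0.293% of all genes. ERF104 had 1.41, 1.62 and 1.82 CPM in PDAT against 0.33, 0.28 and 0.103 CPM in fae1 (edgeR adjusted p = 0.0928, DESeq2 adjusted p = 0.0173). For endoplasmic reticulum stress 35 of 38 were positive, with a median of 0.31 (0.20 without fae1 A), and 12 were higher at an unadjusted p below 0.05, against 4.36% of all genes. Without fae1 A the counts at that p were smaller. They were 2 of 14 for heat shock, 5 of 25 for stress transcription factors and 5 of 38 for endoplasmic reticulum stress. Among all genes the count was 489 of 18897. With all 6 libraries DESeq2 called 2 of the 38 endoplasmic reticulum stress genes higher, ERDJ3A and AT5G07340, against 0.293% of all genes. ERDJ3A, a chaperone partner, had 21.9, 25.9 and 26.4 CPM in PDAT against 12.1, 15 and 12.9 CPM in fae1 (edgeR adjusted p = 0.0789, DESeq2 adjusted p = 0.00752). In calcium and touch the median was 0.30 over 6 genes, and 0.04 without fae1 A. Without fae1 C it was 0.80, over the 8 genes that the expression filter then kept. In abscisic acid it was 0.18, with 0.07 without PDAT A. In detoxification it was 0.03, in jasmonate 0.03 and in methionine 0.04, and with 1 library left out these ran from -0.01 to 0.11, from -0.06 to 0.10 and from 0.03 to 0.09. With a library left out the filter kept 33 detoxification genes in place of 32, and 22 jasmonate genes in place of 21.

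**Figure D5:**
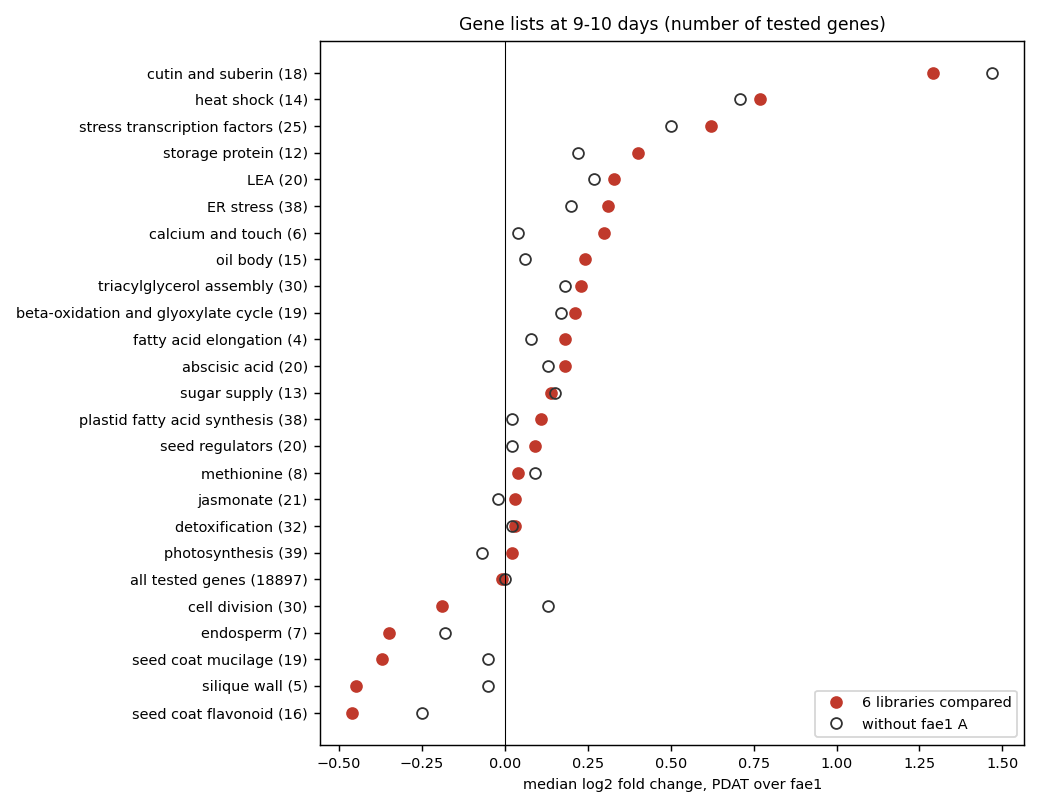
Median log2 fold change of PDAT over fae1 (horizontal axis) for each gene list and for all tested genes, with filled points for the 6 libraries and open points without fae1 A. Cutin and suberin lie at 1.29 and 1.47, and the cell division median changes sign without fae1 A.

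The oil and storage lists had positive medians, and 0 of their genes were called in edgeR or DESeq2. The plastid fatty acid synthesis list had a median of 0.11 (0.02 without fae1 A), with 28 of 38 positive. Without fae1 A, 21 of the 38 were positive, against 9475 of 18897 genes. For triacylglycerol assembly it was 0.23 (0.18 without fae1 A), with 28 of 30 positive. In that list 4 of 30 were higher at an unadjusted p below 0.05, against 4.36% of all genes. Without fae1 A, 3 of the 30 were higher at that p, against 489 of 18897 genes. For fatty acid elongation the median was 0.18 (0.08 without fae1 A), with 4 of 4 positive. Oil bodies were at 0.24 (0.06 without fae1 A and 0.47 without fae1 C), with 12 of 15 positive (10 without fae1 A). Storage proteins were at 0.40 (0.22 without fae1 A), with 11 of 12 positive (10 without fae1 A). FAE1 had 687, 858 and 875 CPM in PDAT against 539, 757 and 837 CPM in fae1 (log2 fold change 0.18 ± 0.29), and the mutation is in all 3 lines, so its level checks no label. FAD2, the oleate desaturase, had 2660, 4360 and 4520 CPM in PDAT against 2500, 3370 and 3680 CPM in fae1. FAD3, the linoleate desaturase, was at 0.52 ± 0.43, DGAT1 at 0.29 ± 0.18, ROD1 at 0.18 ± 0.15, BCCP2 at 0.15 ± 0.19 and WRI1 at -0.04 ± 0.16. The plant's own PDAT1 had 11.7, 10.5 and 10.2 CPM in PDAT against 8.18, 9.35 and 7.55 CPM in fae1 (log2 fold change 0.37 ± 0.13, edgeR adjusted p = 0.264), and its relative AT3G44830 was at 0.34 ± 0.38. The remaining medians were 0.33 for LEA proteins, 0.09 for seed regulators, 0.21 for beta-oxidation, 0.14 for sugar supply and 0.02 for photosynthesis. The LEA median was 0.08 without PDAT A and 0.65 without fae1 C, and that of seed regulators 0.02 without PDAT A or fae1 A. Sugar supply was at 0.07 without PDAT A and beta-oxidation at 0.14. Photosynthesis ran from -0.07 without fae1 A to 0.12 without PDAT A.

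The flavonoid, mucilage, cell division, endosperm and silique wall lists had negative medians. Seed coat flavonoid genes had a median of -0.46 (-0.25 without fae1 A), with 13 of 16 negative. Without PDAT B the median was -0.70, over the 17 genes that the filter then kept. At an unadjusted p below 0.05, 6 of the 16 were lower, against 8.56% of all genes, and DESeq2 called 4 lower, against 0.213% of all genes. Without fae1 A, 5 of the 16 were lower at that unadjusted p, against 447 of 18897 genes. DFR, a reductase of proanthocyanidin synthesis, had 2.35, 1.12 and 0.958 CPM in PDAT against 16.2, 4.58 and 5.48 CPM in fae1 (edgeR adjusted p = 0.056). BAN, which makes epicatechin, had 4.54, 2.74 and 2.47 CPM in PDAT against 27.5, 9.16 and 11.9 CPM in fae1 (edgeR adjusted p = 0.119). In both, fae1 A was the highest. The mucilage median was -0.37 (-0.05 without fae1 A), cell division -0.19 (0.13), endosperm -0.35 (-0.18) and silique wall -0.45 (-0.05). In cell division 4 of 30 genes were positive, and 21 of 30 without fae1 A. Summed silique wall levels were 48.2, 27.3 and 32.8 CPM in PDAT A, B and C against 80.1, 40.8 and 41.2 CPM in fae1 A, B and C, with IND and CRC at or near 0. Their part in the results was not tested.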

How the data were processed

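RNA was sequenced from developing seeds with the Illumina TruSeq mRNA v2 kit, per the labels' protocols. Per-gene read counts were deposited unnormalized, 1 file per library. Per the submitters' processing notes, HTSeq 0.5.4p3, TopHat2 2.0.3 and the build TAIR10 were used, in roles not given. The 5 summary lines, 7.01% to 13.4% of a file, were dropped. Counts of all 27 libraries (9 groups of 3) were fitted in edgeR 4.0.16 (R 4.3.3, limma 3.58.1) with TMM factors, its expression filter (18897 genes), a robust quasi-likelihood fit (common BCV 0.209) and 2-sided contrasts. DESeq2 1.42.0, other factors, no filter, left-out libraries and a replicate block were alternatives. Same-letter PDAT and fae1 libraries deviated together at 9-10 days (r = 0.21, 0.13 and 0.26 for A, B and C). Different letters reached 0.11, for fae1 C with PDAT B. With CL37, same-letter values were 0.04, -0.04 and 0.05 for PDAT and 0.14, -0.07 and 0.01 for fae1. The labels do not say that a letter marks a shared batch, and these values do not settle it. On simulated data with changed genes, 51% were recovered at 2-fold and 100% at 4-fold for PDAT against fae1 at 9-10 days (18751 genes), with 6 unchanged genes called. The simulation gave all genes the common BCV, changed only genes above 4 CPM and set no library apart as fae1 A is. These shares therefore do not measure what was missed in the real data. There AT3G53040, an LEA gene, had a log2 fold change of 4.39 and was not called in edgeR (adjusted p = 0.219). DESeq2 called it (adjusted p = 0.0164). It had 43.6, 12.1 and 1.06 CPM in PDAT A, B and C against 0.396, 1.22 and 1.24 CPM in fae1 A, B and C. PDAT A was thus far the highest, and PDAT C lay below fae1 B and C. All 17 called genes are named, with lipid genes and list members. This comparison and the gene lists were chosen with earlier results of these data known. P-values rest on the spread between replicates estimated over all 27 libraries, and not on that of the 6 compared alone. The authors' pooled FPKM table was not used.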

Additional observations from a re-analysis of the deposited data

Results flagged for a closer look

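The line difference changed between stages for 15 of the named genes, by the interaction test in edgeR. All but CT-BMY were named for their large called changes in that same test, so the count follows from the choice. From 7-8 to 9-10 days the log2 difference of PDAT and fae1 moved by 9.36 for AT3G04170, a cupin gene, by 9.06 for AT5G37690, by 8.09 for CYP86A1 and by 7.10 for GASA3. These 4 were high in fae1 A of 7-8 days, with 17.5 CPM for AT3G04170 against 0.311 and 0 in fae1 B and C, so that library moves with them, and its part was not tested. It moved by -8.30 for AT3G01325, -6.01 for AT1G19160, -5.66 for RALFL3 and -5.24 for RL6, all at or below 2.64 CPM in each 9-10 day library. From 9-10 to 11-12 days it moved by 8.63 for COR15A, 8.03 for DOGT1, 7.32 for AT4G08555 and 5.58 for AT1G65490. For AT4G08555 fae1 A of 9-10 days had 11.3 CPM against 1.12 and 0.828 in fae1 B and C. CT-BMY moved by 3.03, UGT71B8 by -1.38 and AHG2 by -1.01.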

How the results depend on the processing

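All 17 calls kept their direction in every alternative run, and they kept their calls with RLE or upper-quartile factors, no filter and DESeq2. With 1 library left out, many calls were lost. Of the 17, 6 stayed called without fae1 A, 11 without fae1 B and 15 without fae1 C. Without PDAT A, B or C, 8, 10 and 7 stayed called. The PDAT minus fae1 counts, higher and lower, were 55 and 40 in DESeq2, 0 and 1 with only the 6 libraries (2330 at an unadjusted p below 0.05), 6 and 5 without both fae1 A libraries, and 75 and 60 without fae1 A of 7-8 days alone, an alternative chosen after seeing the data. Leaving out 1 library gave 2 to 19 higher and 3 to 22 lower. The replicate block gave 12 and 5. For PDAT against CL37 the count was 24 in DESeq2 and 0 to 39 with a library left out. For CL37 against fae1 it was 271 in DESeq2, 317 without fae1 A of 7-8 days, and 42 to 175 with a library left out. The change of the difference to 9-10 days gave 72 calls with no filter, 470 in DESeq2, 29 with the replicate block and 0 to 309 with a library left out. The change to 11-12 days gave 378 in DESeq2, 223 without both fae1 A libraries, 1534 without fae1 A of 7-8 days, 51 with the replicate block and 37 to 109 with a library left out. WRI1, never called, ran from -0.15 to 0.05, with 0.01 without PDAT A. The cause was not tested.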
